A study of Mus musculus with 12 samples.

Results

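The nuclear-encoded subunits of the respiratory chain and of the ATP synthase were followed in murine hepatoblastoma cells in normoxia and in hypoxia, before and after sorting. Genes were chosen by symbol (Nduf followed by a, b, c, s or v, the 4 Sdh genes, Uqcr, Cox4 to Cox8, and Atp5), without the Ndufaf assembly factors and without names marked as pseudogenes. This gave 85 of the 45706 genes in the table: 36 of complex I, 4 of complex II, 8 of complex III, 19 of complex IV, 15 of complex V and 3 that carry such a name without being assigned to a complex here (Cox7a2l, Atp5s and Atp5sl). Ndufa4 and Ndufa4l2 were counted with complex IV, where the NDUFA4 protein is now placed. All 12 libraries came from 1 immortalized line, BN1, whose genotype is labelled Cdkn2a KO and which arose from a tumor driven by mutant β-catenin and mutant NRF2 (B+N). It carried a Tie2-EGFP reporter, in which the promoter of the endothelial gene Tek drives EGFP, so EGFP stood for activity of that promoter and not for an endothelial identity. Unsorted monolayers were kept in normoxia, at 21% oxygen (UN), or exposed to 1% oxygen for 2 days (UH). The cells brightest for EGFP after such an exposure were sorted, expanded for about 10 days in normoxia (SN) and exposed again to 1% oxygen for 2 days (SH). Each group had 3 libraries. The sample titles call the unsorted cells EGFP+ as well. In SN and SH the sort, the earlier hypoxia and the expansion cannot be told apart.

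The respiratory chain passes electrons from NADH (complex I) and succinate (complex II) through complex III and cytochrome c to oxygen at complex IV, and complex V uses the resulting proton gradient to make ATP. Most subunits are encoded in the nucleus, and a few core subunits in mitochondrial DNA. Some complex IV subunits have alternative isoforms. Cox4i2 is an isoform of Cox4i1 best known from lung and from hypoxic cells, and Ndufa4l2 is a relative of Ndufa4 and a well-known target of the hypoxia-inducible factor HIF-1. Cox6a2 and Cox7a1 are isoforms typical of heart and skeletal muscle.

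HIF binds DNA at a short core written ACGTG or GCGTG. Promoter sequence is shown for the members that were higher in both hypoxia comparisons and for those past 2-fold lower in both, so that their upstream bases can be read beside the values that follow. The windows are from RefSeq (build GRCm38.p6), lie within 250 bases before the start used in the RefSeq promoter table and leave out exons annotated in GENCODE M21, and capitals mark each core on either strand. They cover chr17:31519981-31520114 for Ndufv3 and chr7:30183921-30184143 for Cox7a1, both on the plus strand, and chr17:83514334-83514583 on the minus strand for Cox7a2l. Of the genes that fell, they cover chr9:57520982-57521231 on the plus strand for Cox5a, and on the minus strand chr6:11907498-11907700 for Ndufa4, chr11:96075671-96075881 for Atp5g1 and chr2:73911327-73911576 for Atp5g3.
Ndufv3: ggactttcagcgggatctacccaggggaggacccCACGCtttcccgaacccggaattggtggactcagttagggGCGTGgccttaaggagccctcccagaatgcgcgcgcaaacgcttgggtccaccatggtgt
Cox7a1: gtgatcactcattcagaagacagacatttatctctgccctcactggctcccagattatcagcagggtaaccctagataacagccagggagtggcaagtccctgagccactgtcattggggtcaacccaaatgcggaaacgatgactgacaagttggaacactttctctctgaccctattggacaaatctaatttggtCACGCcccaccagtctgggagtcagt
Cox7a2l: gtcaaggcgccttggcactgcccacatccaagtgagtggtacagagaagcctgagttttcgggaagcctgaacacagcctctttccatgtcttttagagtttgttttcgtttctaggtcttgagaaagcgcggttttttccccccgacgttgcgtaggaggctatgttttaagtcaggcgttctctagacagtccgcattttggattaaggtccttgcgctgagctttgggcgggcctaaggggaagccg
Ndufa4: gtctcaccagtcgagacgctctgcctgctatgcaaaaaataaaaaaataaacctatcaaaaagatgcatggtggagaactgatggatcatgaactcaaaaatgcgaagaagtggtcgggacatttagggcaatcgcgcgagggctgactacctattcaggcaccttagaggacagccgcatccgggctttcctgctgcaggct
Cox5a: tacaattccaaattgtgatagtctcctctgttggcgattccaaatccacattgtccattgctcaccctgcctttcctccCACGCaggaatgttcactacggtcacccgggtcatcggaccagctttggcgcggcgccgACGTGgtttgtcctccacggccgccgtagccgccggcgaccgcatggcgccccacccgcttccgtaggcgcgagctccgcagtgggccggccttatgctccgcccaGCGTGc
Atp5g1: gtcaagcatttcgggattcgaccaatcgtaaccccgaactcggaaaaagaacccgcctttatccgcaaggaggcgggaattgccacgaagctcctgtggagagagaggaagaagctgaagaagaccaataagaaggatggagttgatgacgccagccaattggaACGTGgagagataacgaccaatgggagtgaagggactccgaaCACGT
Atp5g3: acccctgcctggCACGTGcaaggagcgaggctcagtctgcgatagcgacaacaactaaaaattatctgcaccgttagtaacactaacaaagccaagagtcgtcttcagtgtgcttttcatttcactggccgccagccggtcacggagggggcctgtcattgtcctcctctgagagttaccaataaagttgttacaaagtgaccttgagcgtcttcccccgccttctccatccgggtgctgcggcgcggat
Ndufv3 had the GCGTG core 60 bases before its start on its own strand and 100 bases before it on the opposite strand, and Cox7a1 had one 53 bases before its start on the opposite strand. The windows of Cox7a2l, Cox5a and Atp5g3 lie inside the full span of the gene in GENCODE M21 or RefSeq, so longer annotated transcripts start further upstream, at bases not shown. The windows of Cox7a2l, which rose, and of Ndufa4, which fell, held no such core, while those of Cox5a, Atp5g1 and Atp5g3, which fell, held 3, 2 and 2 matches. The 2 matches of Atp5g3 overlap and form the palindrome CACGTG, which is also an E-box. Of the 67 members with an entry in the RefSeq promoter table, 35 (52.2%) held either core within 250 bases before the start, against 41.5% of all 27025 genes with an entry. Ndufa4l2 and Cox4i2 had no entry.

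Levels were deposited as TPM (transcript abundance scaled to a fixed total per library), which also divides by transcript length, so the depth of a library cannot be read from them and a value is a share of that library's RNA. In bulk RNA, fewer cells expressing a gene and less RNA per cell cannot be told apart. The labelled cell type was only in part visible in its markers: Krt18 was at 63.5 TPM or more in every library, but Alb did not pass 4.23 TPM. Of 8 hepatocyte markers tested, 4 (Alb, Apob, Hnf4a and Krt8) were past 2-fold lower in SN vs UN and Afp was past 2-fold higher. Krt8 was at 33.7 to 84.9 TPM in UN and at or below 5.72 TPM in SN, and Afp at 1.43 to 2.34 TPM in UN and 8.14 to 9.80 TPM in SN. Markers of other cell types moved with the groups. The summed TPM of 9 fibroblast genes ran from 1175 to 5160 in UN, from 4851 to 7133 in UH, from 199.6 to 209.5 in SN and from 50.5 to 66.6 in SH, with Lum at 0 in UH and SN, and UN replicate 1 held the 5160. The genes did not all move with the sum: of 8 tested, 3 rose and 3 fell past 2-fold in UH vs UN. In SH vs SN 1 rose and 4 fell. The sum of 6 leukocyte markers was 4.35 to 7.81 TPM in UN, 20.3 to 21.3 TPM in UH, 9.31 to 13.8 TPM in SN and 58.3 to 61.8 TPM in SH, nearly all of it Cd68 and Csf1r, with Ptprc at or below 0.121 TPM in every library. The sum of 6 muscle markers was 4.74 to 6.26 TPM in UN, 4.39 to 5.81 TPM in UH, 39.2 to 65.8 TPM in SN and 44.1 to 50.7 TPM in SH, nearly all of it Tnnt2, with Myod1 at 0 in UN, UH and SN. Summed endothelial markers stayed at or below 12 TPM, with Tie1 at 0 in UN, UH and SN, and summed pericyte markers (a list chosen after values were seen) at or below 18.1 TPM, with Higd1b at 0 throughout. Of 5 endothelial markers tested, 1 rose and 1 fell past 2-fold in SN vs UN. In SH vs UH 3 were higher and 1 lower, with 1 past 2-fold in each direction. The part of any of these in the results was not tested.

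On the scale of the deposited TPM most respiratory chain genes fell in both hypoxia comparisons. A gene is said to have passed the test where the adjusted p (limma on log2(TPM + 1), Benjamini-Hochberg over the 18909 genes with a mean of at least 0.1 TPM) was under 0.05, and to be past 2-fold where its log2 fold change was in addition beyond 1 in size. Of the 85 members 82 were tested, and the other 3 (Cox7b2, Cox8b and Cox8c, isoforms of narrow tissue range) were listed at 0 in every library. In UH vs UN 61 members fell, where 33.5% of all genes fell, and 7 rose, where 13.0% of all genes rose. In SH vs SN 48 fell (background 19.5%) and 7 rose (background 21.5%). The changes were mostly under 2-fold: 9 members were past 2-fold lower in UH vs UN, compared with 5 in SH vs SN, against backgrounds of 11.8% and 5.0%, and 3 were past 2-fold higher in each (5.46% and 7.47%). The median log2 fold change of the 82 members was -0.58 in UH vs UN, where that of all genes was -0.19, and -0.44 in SH vs SN, where that of all genes was 0.03. The groups did not overlap for 65 members in UH vs UN, compared with 64 in SH vs SN, against 51.1% and 56.8% of all genes. The count in unsorted cells depended on how libraries were brought to a common scale: with median-of-ratios scaling, under which the median of all genes was 0 in UH vs UN but 0.03 in SH vs SN, 25 members fell and 11 rose in UH vs UN (median -0.24), and 38 fell and 7 rose in SH vs SN (median -0.43). On that scale 21.1% of all genes fell and 21.7% rose in UH vs UN, and 20.1% fell and 22.9% rose in SH vs SN. The 25 that fell under every scaling tried included all 4 subunits of complex II.

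**Figure D1:**
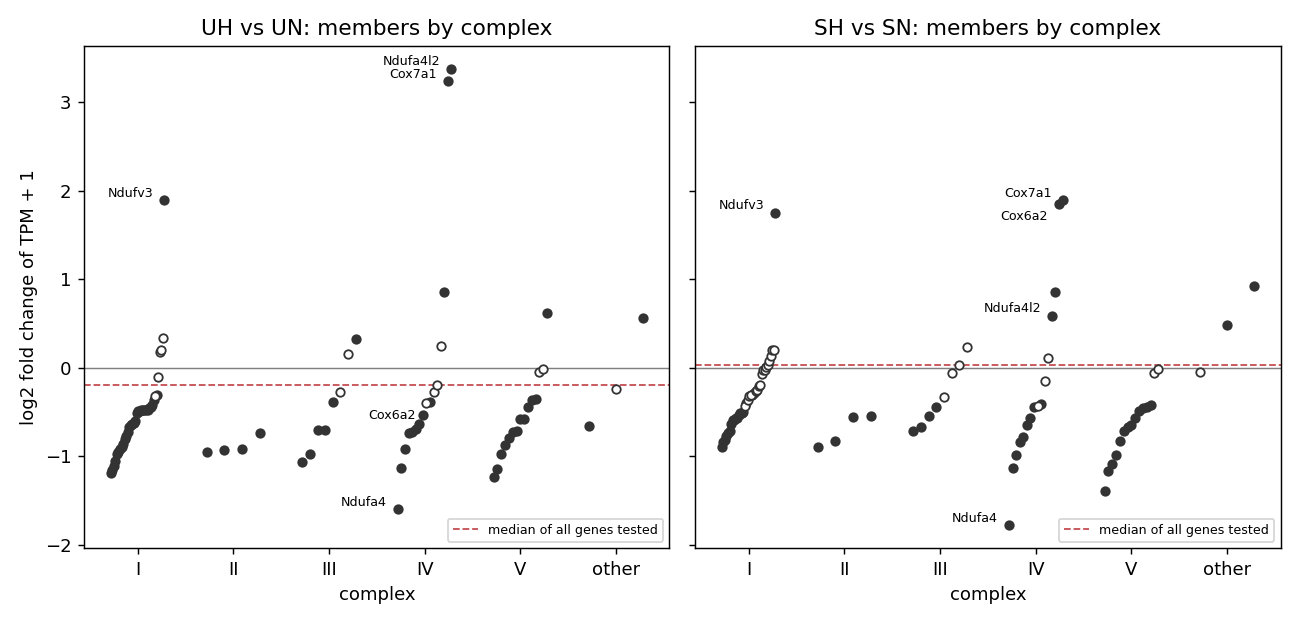
Log2 fold changes (vertical axis, on TPM + 1) of the 82 tested members, arranged by complex, in unsorted cells (UH vs UN, left) and sorted cells (SH vs SN, right). Each point is 1 gene, filled where it passed the test and open where it did not, and the dashed line is the median of all 18909 genes tested (-0.19 and 0.03). Most points of every complex lie below that line. Ndufv3 and Cox7a1 lie far above it in both panels, Ndufa4l2 in the left one (3.38) and Cox6a2 in the right one (1.85).

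The comparisons UH vs UN and SH vs SN share no library. Of the 82 members, 44 fell in both (15.3% of all genes), 17 fell with a passed test in UH vs UN alone (18.1%), and 4 did so in SH vs SN alone (4.21%). Passing in one comparison and not in the other is no test of a difference between them, which is given further on. Ndufa4l2, Cox7a1, Cox7a2l and Ndufv3 rose in both (7.95% of all genes). Atp5s passed in opposite directions, and 8 members passed in neither (Atp5g2, Atp5sl, Cox4i1, Ndufa6, Ndufa7, Ndufs3, Ndufs7 and Uqcrq). Across the 82 members the log2 fold changes of both comparisons had a Pearson r of 0.709, and across all genes tested it was 0.625. Genes are not independent replicates, and these values are descriptions.

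The hypoxia isoforms rose mainly in the unsorted cells. Ndufa4l2 was at 0.324, 0 and 0.170 TPM in the 3 UN libraries, 11.7, 10.2 and 11.3 TPM in UH, 0.0741, 0 and 0 TPM in SN and 0.454, 0.516 and 0.647 TPM in SH. Every hypoxic library lay above every normoxic one, and every UH library lay far above every SH library. The log2 fold change was 3.38 ± 0.13 (SE), adjusted p = 1.41e-08 in UH vs UN, and 0.59 ± 0.13 (SE), adjusted p = 0.00422 in SH vs SN. At such low levels in normoxia a change on the log2(TPM + 1) scale is smaller than the change in TPM itself. This shrinkage was stronger in sorted cells, whose means were 0.0247 TPM in SN and 0.539 TPM in SH. The size of the difference between the responses therefore depends on the value added before taking logs. The response in sorted cells was smaller than that in unsorted cells, by -2.79 ± 0.19 (SE) on the log2 scale (sorted minus unsorted, adjusted p = 7.26e-06), and SH was below UH by a log2 fold change of -2.97 ± 0.13 (SE), adjusted p = 2.76e-08.

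Cox4i2 was likewise highest in UH, at a lower level. It was at 0.114, 0 and 0.119 TPM in UN, 0.884, 0.996 and 0.984 TPM in UH, 0.104, 0.0639 and 0.0717 TPM in SN and 0.212, 0.103 and 0.179 TPM in SH. The UH libraries stood apart from the other 9, while SN and SH overlapped. In UH vs UN it rose, and the log2 fold change was 0.86 ± 0.09 (SE), adjusted p = 1.28e-05. In SH vs SN the difference was 0.11 (95% confidence interval -0.09 to 0.30, adjusted p = 0.370), and the responses differed by -0.75 ± 0.13 (SE), adjusted p = 0.00200. Both genes lay among the low members: Cox4i2 did not reach 1 TPM in any library.

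Their constitutive partners did not move together. Ndufa4 was at 452, 428 and 417 TPM in UN, 173, 129 and 129 TPM in UH, 346, 318 and 328 TPM in SN and 82.2, 97.8 and 108 TPM in SH. It had the lowest log2 fold change of all 82 members in both hypoxia comparisons, -1.60 ± 0.13 (SE), adjusted p = 1.76e-06 in UH vs UN and -1.78 ± 0.13 (SE), adjusted p = 1.42e-06 in SH vs SN, with no overlap of groups. Cox4i1, which encodes the common form of subunit 4, was at 596, 692 and 650.3 TPM in UN, 659.8, 541 and 504 TPM in UH, 691, 689 and 621 TPM in SN and 573, 603 and 628 TPM in SH. Its groups overlapped in each comparison, and the sign of its change in UH vs UN turned under median-of-ratios scaling, at 0.17 (adjusted p = 0.435). Its log2 fold change was -0.19 (95% confidence interval -0.43 to 0.05, adjusted p = 0.181) in UH vs UN and -0.15 (95% confidence interval -0.39 to 0.09, adjusted p = 0.311) in SH vs SN.

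Within each library the hypoxia isoform was the smaller part of its pair. Ndufa4l2 made up 0.0375 ± 0.0360% of the summed TPM of Ndufa4 and Ndufa4l2 in UN, 7.23 ± 0.848% in UH, 0.00715 ± 0.0124% in SN and 0.556 ± 0.0359% in SH (mean ± SD, n = 3). Cox4i2 made up 0.0125 ± 0.0109% of the Cox4 pair in UN, 0.171 ± 0.0325% in UH, 0.0120 ± 0.00293% in SN and 0.0276 ± 0.00996% in SH. Such a share does not depend on the scaling between libraries. For both isoforms the groups did not overlap in UH vs UN, SH vs SN and SH vs UH (exact two-sided permutation test, p = 0.1, the smallest that 3 against 3 libraries allow), and they overlapped in SN vs UN (exact p = 0.4 for Ndufa4l2 and 1.0 for Cox4i2). Ndufa4 lost far more TPM than Ndufa4l2 gained: between UN and UH the mean of Ndufa4 went from 432 ± 17.5 TPM to 144 ± 25.1 TPM (SD, n = 3) and that of Ndufa4l2 from 0.165 ± 0.162 TPM to 11.1 ± 0.788 TPM.

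**Figure D2:**
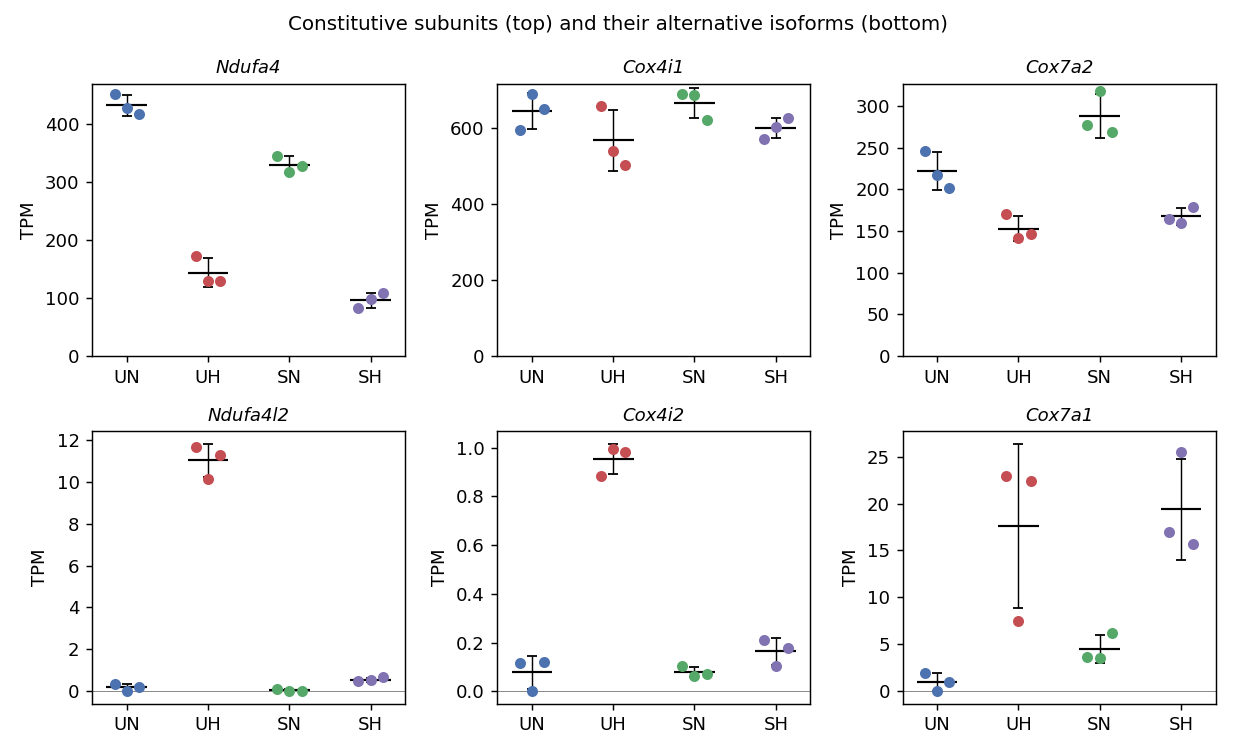
TPM (vertical axes, each from 0) of 3 constitutive complex IV subunits and, below each, of the alternative isoform of the same pair, in the 12 libraries. Points are libraries, black lines the group mean and error bars the SD (n = 3). Ndufa4l2 and Cox4i2 are high in UH only, Cox7a1 is high in UH and SH, and Ndufa4 is low in both.

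Over the 12 libraries the pattern most like that of Cox4i2, among all genes tested, was that of Ndufa4l2 (Pearson r of log2(TPM + 1) = 0.990), followed by 9130008F23Rik, Fam184b, Gm14290 and Dpp6, whose r was 0.985 or more. The patterns most like that of Ndufa4l2 were those of Pgbd1 (r = 0.995), Fibcd1, Adm2, Cox4i2 and Fam184b. All of them had their highest mean in UH, and these correlations rest on the 3 UH libraries standing apart from the other 9.

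The muscle-type isoforms of complex IV behaved differently from the hypoxia isoforms. Cox7a1 was at 1.90, 0 and 0.956 TPM in UN, 23, 7.50 and 22.4 TPM in UH, 3.68, 3.57 and 6.24 TPM in SN and 17, 25.5 and 15.7 TPM in SH. Every hypoxic library lay above every normoxic one, with UH replicate 2 the lowest of the 6, and UH and SH overlapped. It rose by a log2 fold change of 3.24 ± 0.44 (SE), adjusted p = 1.02e-04 in UH vs UN and 1.89 ± 0.44 (SE), adjusted p = 0.00505 in SH vs SN. The SH vs SN test was not passed with a pseudocount of 0.1, at 2.10 (adjusted p = 0.0692). Its share of the Cox7a1 and Cox7a2 pair was 0.412 ± 0.386% in UN, 10.04 ± 4.39% in UH, 1.56 ± 0.620% in SN and 10.4 ± 3.03% in SH. The partner Cox7a2 fell in both, by 0.53 and 0.78 on the log2 scale (adjusted p = 0.00165 and 1.64e-04), although the change in UH vs UN did not pass under median-of-ratios scaling.

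Cox6a2 was high in SH alone. It was at 0.521, 1.28 and 1.22 TPM in UN, 0.126, 0.709 and 0.746 TPM in UH, 0.237, 0.218 and 0.407 TPM in SN and 3.48, 3.16 and 4.32 TPM in SH, so the SH libraries lay above the other 9. It rose in SH vs SN by a log2 fold change of 1.85 ± 0.21 (SE), adjusted p = 3.38e-05, its value in UH vs UN was -0.40 (adjusted p = 0.137) with overlapping groups, and the responses differed by 2.25 ± 0.29 (SE), adjusted p = 4.50e-04. Cox6b2, an isoform best known from testis, was listed at 0 in all UN libraries, at 0, 0 and 0.654 TPM in UH, 0, 0.403 and 0.143 TPM in SN and 1.27, 0.542 and 1.74 TPM in SH. It rose in SH vs SN, with a log2 fold change of 0.86 ± 0.23 (SE), adjusted p = 0.0114, and did not pass without SN replicate 1, at 0.75 (adjusted p = 0.0505). Both isoforms stayed a small part of their pairs: in SH, Cox6a2 was 0.827 ± 0.0470% of Cox6a1 and Cox6a2, and Cox6b2 was 0.230 ± 0.115% of Cox6b1 and Cox6b2. The summed muscle markers given above overlapped between SN and SH, but that sum is nearly all Tnnt2. Of the other 5 markers, Ckm, Myh6 and Actn2 were at 0 in every SN library and above 0 in every SH library, Myh7 was higher in every SH library than in any SN library, and Myod1 was above 0 in SH alone, all of them at or below 0.173 TPM. Over the whole table, 21666 to 22369 genes were above 0 in the SH libraries, against 18901 to 20251 in the other 9. A move from 0 to above 0 in SH was therefore not particular to these genes. The part of the markers or of this wider shift in the rise of these isoforms was not tested.

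In complex IV as a whole, isoforms included, 9 of the 16 tested members fell in UH vs UN, the same number fell in SH vs SN, and 3 and 4 rose. Under median-of-ratios scaling 3 and 7 fell. Cox5a, which with subunit 4 forms part of the early core of the complex, was at 256, 204 and 214 TPM in UN, 116, 94 and 95.5 TPM in UH, 291, 232 and 245 TPM in SN and 115, 109 and 123 TPM in SH. Its hypoxic and normoxic libraries did not overlap, and the log2 fold change was -1.14 ± 0.12 (SE), adjusted p = 1.70e-05 in unsorted and -1.13 ± 0.12 (SE), adjusted p = 2.79e-05 in sorted cells. Cox7b (-0.91 and -0.98) and Cox6c (-0.74 and -0.84) fell in both, although Cox6c did not pass in UH vs UN under median-of-ratios scaling, at -0.39 (adjusted p = 0.116). Cox8a, the complex IV gene with the highest mean, fell in SH vs SN by 0.44 on the log2 scale (adjusted p = 0.0255), but this did not pass without SN replicate 2, at -0.37 (adjusted p = 0.0969), nor without SN replicate 3 or SH replicate 2, at -0.42 (adjusted p = 0.0706) and -0.36 (adjusted p = 0.102), nor under median-of-ratios scaling, at -0.43 (adjusted p = 0.0565).

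Cox7a2l encodes a factor that joins complexes III and IV into supercomplexes and is no subunit of the complex IV monomer. It rose in both hypoxia comparisons, unlike most members. Its level was 268, 287 and 273 TPM in UN, 482, 382 and 369 TPM in UH, 218, 206 and 244 TPM in SN and 415, 407 and 448 TPM in SH, with no overlap between hypoxia and normoxia. The log2 fold change was 0.56 ± 0.11 (SE), adjusted p = 0.00123 in UH vs UN and 0.93 ± 0.11 (SE), adjusted p = 5.18e-05 in SH vs SN.

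In complex I, 30 of 36 members fell in UH vs UN, against 18 in SH vs SN. Under median-of-ratios scaling this order turned round, with 9 lower and 4 higher in UH vs UN, while 13 were lower and 1 higher in SH vs SN. Ndufv3, a supernumerary subunit beside the NADH-oxidizing module, was the exception and rose in both. It was at 259.7, 248 and 213 TPM in UN, 1023, 880.1 and 784 TPM in UH, 264, 263 and 324 TPM in SN and 985, 1039.9 and 839 TPM in SH. It was the most abundant complex I transcript per length over the 12 libraries, and its hypoxic libraries lay far above its normoxic ones. The log2 fold change was 1.89 ± 0.13 (SE), adjusted p = 7.59e-07 in unsorted and 1.75 ± 0.13 (SE), adjusted p = 2.31e-06 in sorted cells, and the difference between these was -0.14 (95% confidence interval -0.56 to 0.27, adjusted p = 0.613).

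The core subunits of the NADH-oxidizing module had negative log2 fold changes in both comparisons, but not all of them passed. Ndufv1, which binds the flavin, was at 145, 185 and 153 TPM in UN, 78.7, 87.8 and 81.4 TPM in UH, 183, 163 and 175 TPM in SN and 101, 111 and 135 TPM in SH, with log2 fold changes of -0.95 (adjusted p = 6.32e-05) and -0.59 (adjusted p = 0.00236). Of the 7 core subunits, 5 fell in UH vs UN, 3 fell in SH vs SN, and none rose, while under median-of-ratios scaling 2 fell and 2 rose in UH vs UN. Ndufv2 fell in UH vs UN (-0.77 (adjusted p = 5.85e-04)), though not under median-of-ratios scaling, at -0.42 (adjusted p = 0.0621), and was at -0.31 (adjusted p = 0.0848) in SH vs SN. Ndufs1, the large iron-sulfur subunit, fell by 0.80 and 0.89 on the log2 scale (adjusted p = 4.88e-04 and 3.05e-04). Ndufs8 fell in both as well (-0.73 and -0.77), in UH vs UN not under median-of-ratios scaling. Ndufs3 and Ndufs7, core subunits of the connecting arm, passed in neither, at 0.20 (95% confidence interval -0.03 to 0.44, adjusted p = 0.151) and 0.17 (95% confidence interval -0.15 to 0.50, adjusted p = 0.375) in UH vs UN. They were the 2 that rose there under median-of-ratios scaling, at 0.56 (adjusted p = 0.00746) and 0.53 (adjusted p = 0.0499).

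The lowest log2 fold change within complex I in UH vs UN was that of Ndufab1, the mitochondrial acyl carrier protein, at -1.19 ± 0.14 (SE), adjusted p = 3.38e-05. Its level was 177, 169 and 174 TPM in UN, 86.9, 72.5 and 68.1 TPM in UH, 213, 153 and 159 TPM in SN and 85.9, 93.9 and 111 TPM in SH, and it fell in SH vs SN by 0.84 on the log2 scale (adjusted p = 5.91e-04). Ndufs6, an accessory subunit, was at 324, 427 and 449.7 TPM in UN, 205, 169 and 161 TPM in UH, 177, 232 and 199.5 TPM in SN and 146, 159 and 167 TPM in SH. UN lay above all other groups, and UH, SN and SH overlapped in part. Its log2 fold change was -1.16 (adjusted p = 5.25e-05) in unsorted and -0.36 (adjusted p = 0.0672) in sorted cells.

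All 4 genes of complex II, succinate dehydrogenase, fell in both hypoxia comparisons, and none passed in SN vs UN or SH vs UH. Under median-of-ratios scaling all 4 fell in both hypoxia comparisons as well, and 1 was lower in SH vs UH. Sdhb, the iron-sulfur subunit, was at 122, 113 and 120.4 TPM in UN, 67, 56.7 and 63.4 TPM in UH, 115, 112 and 122 TPM in SN and 61, 53.3 and 73.2 TPM in SH. UH and SH overlapped, and SH vs UH was -0.01 (95% confidence interval -0.25 to 0.24, adjusted p = 0.983). The log2 fold changes in unsorted and sorted cells were -0.91 and -0.90 for Sdhb, -0.95 and -0.54 for the flavin subunit Sdha, -0.93 and -0.56 for the membrane anchor Sdhc, and -0.74 and -0.82 for the other anchor, Sdhd. Adjusted p did not exceed 5.87e-04 in UH vs UN or 0.0162 in SH vs SN. Sdhc did not pass in SH vs SN without SN replicate 2, SN replicate 3 or SH replicate 2, at -0.51 (adjusted p = 0.0620), -0.50 (adjusted p = 0.0608) and -0.50 (adjusted p = 0.0616).

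In complex III, 5 of 8 members fell and 1 rose in UH vs UN, and 4 fell and none rose in SH vs SN. Under median-of-ratios scaling 4 and 2 fell. Uqcrb, which binds at the ubiquinone site and had the highest mean of the complex, was at 784, 954 and 1023 TPM in UN, 493, 412 and 408 TPM in UH, 507, 597 and 543 TPM in SN and 387, 455 and 474 TPM in SH. It fell in UH vs UN by a log2 fold change of -1.07 ± 0.13 (SE), adjusted p = 3.66e-05, while SH vs SN gave -0.32 (adjusted p = 0.0618). The core protein Uqcrc1 fell in both, by 0.70 and 0.67 on the log2 scale (adjusted p = 3.48e-05 and 7.31e-05). The other core protein, Uqcrc2, was at 137, 149.6 and 160.3 TPM in UN, 92.6, 89.2 and 90.7 TPM in UH, 159, 177 and 199.5 TPM in SN and 168, 193 and 155 TPM in SH. It was low in UH alone, with a log2 fold change of -0.71 (adjusted p = 2.22e-04) in UH vs UN and -0.05 (adjusted p = 0.738) in SH vs SN. Uqcrh, the hinge protein, was the member that rose in UH vs UN, at 0.33 (adjusted p = 0.0323). It did not pass without UN replicate 2 or 3 or without UH replicate 1 or 2, at 0.29 (adjusted p = 0.102), 0.32 (adjusted p = 0.0809), 0.23 (adjusted p = 0.115) and 0.35 (adjusted p = 0.0603), on a scale without mitochondrially encoded genes, at 0.27 (adjusted p = 0.0638), or with only the 2 groups compared, at 0.33 (adjusted p = 0.0731).

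In complex V, the ATP synthase, 12 of 15 members fell and 1 rose in UH vs UN, and 13 fell and none rose in SH vs SN. Under median-of-ratios scaling 5 fell and 2 rose in UH vs UN, while 12 fell in SH vs SN. The c ring is encoded by 3 genes that yield the same mature protein. Atp5g3 was at 477, 449 and 482 TPM in UN, 234, 208 and 196 TPM in UH, 466, 459 and 399 TPM in SN and 170.0, 145 and 193 TPM in SH, and Atp5g1 was at 255, 264 and 233, 118, 94 and 108, 195, 230.0 and 210.0 and 98.9, 80.1 and 123 TPM in the same order of groups. Both fell past 2-fold in both comparisons, Atp5g3 by 1.14 and 1.39 and Atp5g1 by 1.23 and 1.08 on the log2 scale (adjusted p = 1.03e-05, 4.21e-06, 3.23e-05 and 1.18e-04). Atp5g2 did not pass in either, at -0.04 (95% confidence interval -0.30 to 0.22, adjusted p = 0.811) and -0.05 (95% confidence interval -0.31 to 0.20, adjusted p = 0.771). Because these paralogs and the many processed copies of respiratory genes in the genome can share reads, how reads were divided between them is uncertain.

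The catalytic subunits of complex V differed from each other. Atp5b, the β subunit and the gene of highest mean in the complex, fell in SH vs SN by a log2 fold change of -0.72 ± 0.13 (SE), adjusted p = 0.00127, from 1140.1 to 1288 TPM to 676 to 903 TPM. Atp5a1, the α subunit, was at 390.4, 377 and 346 TPM in UN, 366, 377 and 363 TPM in UH, 713, 708 and 681 TPM in SN and 522, 515 and 535 TPM in SH. UN and UH overlapped, while SN lay above all others and SH between. Its log2 fold change was -0.01 (95% confidence interval -0.17 to 0.16, adjusted p = 0.954) in UH vs UN and -0.42 (adjusted p = 9.78e-04) in SH vs SN. Under median-of-ratios scaling it rose in UH vs UN, at 0.35 (adjusted p = 0.0277). Atp5d, the δ subunit of the central stalk, rose in UH vs UN by 0.62 ± 0.14 (SE), adjusted p = 0.00365, from 268 to 395 TPM to 415 to 545 TPM, and was at -0.02 (adjusted p = 0.956) in SH vs SN. Atp5k, a membrane subunit at the interface of synthase dimers, fell past 2-fold in SH vs SN (-1.17 (adjusted p = 6.97e-05)).

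**Figure D3:**
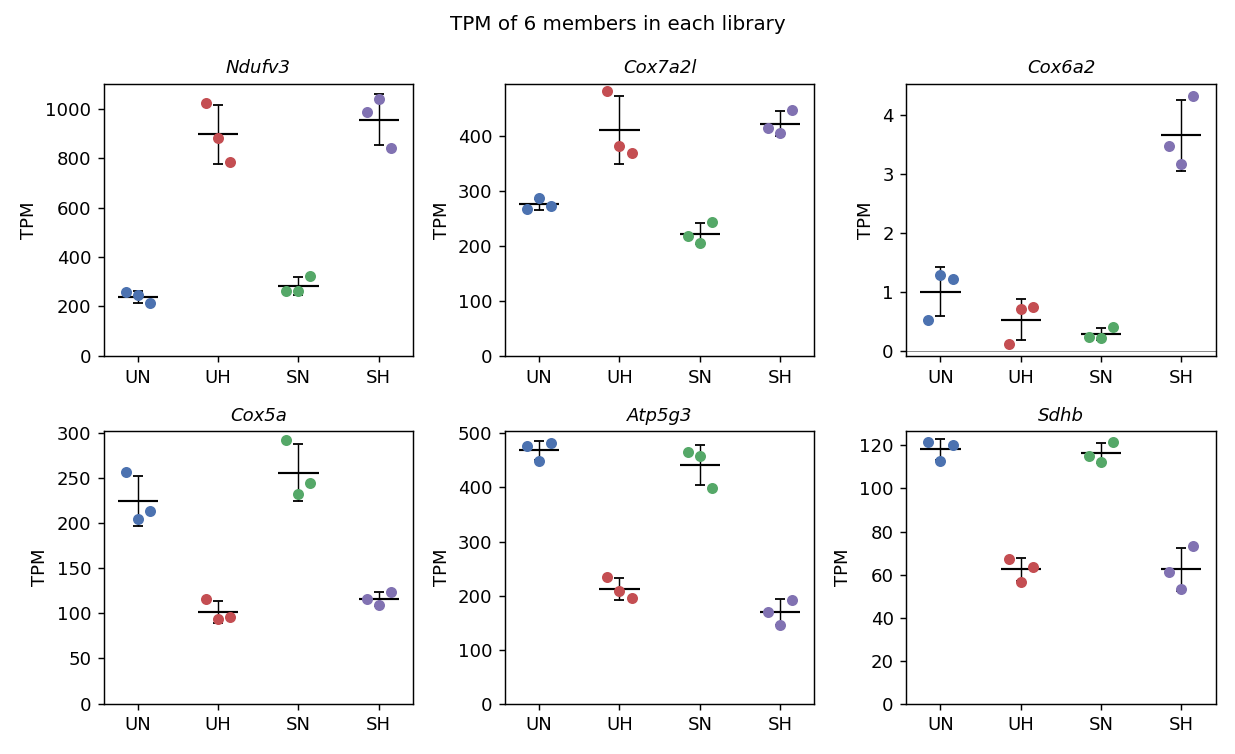
TPM (vertical axes, from 0) of 3 members that rose in at least 1 hypoxia comparison (Ndufv3, Cox7a2l and Cox6a2, top) and 3 that fell in both (Cox5a, Atp5g3 and Sdhb, bottom) in each of the 12 libraries. Points are libraries, black lines group means and error bars the SD (n = 3). Ndufv3 runs from 213 to 324 TPM in normoxia and from 784 to 1039.9 TPM in hypoxia, and Cox6a2 is high in SH only.

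Summed over the 85 members, the share of all TPM was 2.18 ± 0.0355% in UN, 1.60 ± 0.201% in UH, 2.06 ± 0.0411% in SN and 1.58 ± 0.0713% in SH (mean ± SD, n = 3). UH replicate 1 was the highest of the UH libraries, at 1.83% against 1.52% and 1.46%, and hypoxic and normoxic libraries did not overlap. Complex I went from 0.673 ± 0.0233% in UN to 0.535 ± 0.0646% in UH, and from 0.597 ± 0.00547% in SN to 0.544 ± 0.0204% in SH. Complex IV went from 0.536 ± 0.0104% to 0.354 ± 0.0553% and from 0.543 ± 0.0218% to 0.367 ± 0.0174%, and complex V from 0.605 ± 0.00752% to 0.434 ± 0.0476% and from 0.613 ± 0.0156% to 0.406 ± 0.0295%. Complex II, with 4 genes, went from 0.0527 ± 0.00579% to 0.0283 ± 0.000965% and from 0.0467 ± 0.000867% to 0.0286 ± 0.000974%. Complex III went from 0.280 ± 0.00427% to 0.210 ± 0.0288% and from 0.231 ± 0.00440% to 0.192 ± 0.00456%. Sums are carried by the genes of highest level, among them Ndufv3, which rose within complex I.

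**Figure D4:**
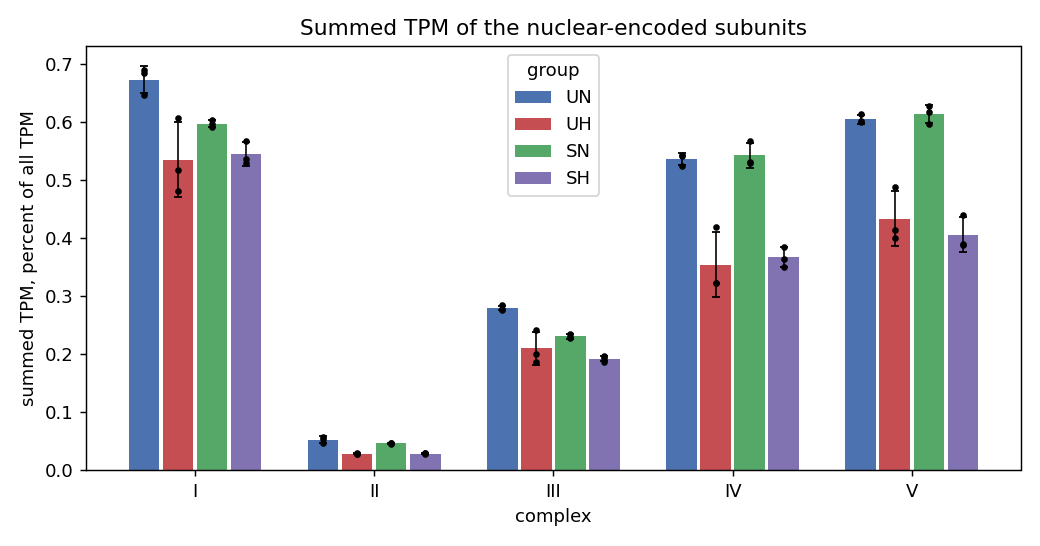
Summed TPM of the members of each complex as a percent of all TPM (vertical axis, from 0) in UN, UH, SN and SH. Bars are group means, error bars the SD and points the 3 libraries of each group. In each complex the hypoxic libraries lie below the normoxic libraries of the same cells.

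Between sorted and unsorted cells fewer members passed, and they did not move in 1 direction. In SN vs UN 9 rose (background 13.0%) and 28 fell (background 20.9%), with a median of -0.13 against -0.06 for all genes, and the groups did not overlap for 50 members (49.0% of all genes). The count that fell rested in part on single libraries: it was 15 without UN replicate 2, 17 without UN replicate 3 and 17 without SN replicate 2, and 12 under median-of-ratios scaling, where 11 rose. On that scale 18.2% of all genes fell and 17.6% rose. In SH vs UH 9 rose (background 28.3%) and 16 fell (background 13.4%), with a median of 0.01 against 0.17 for all genes, and 29 did not overlap (51.7%). There the count that fell was 9 without UH replicate 1, 10 without SH replicate 1 and 9 without SH replicate 2, and under median-of-ratios scaling 4 rose and 23 fell. Of all genes 21.2% rose and 20.5% fell on that scale. In either comparison only 1 member was past 2-fold in each direction: Cox7a1 higher and Ndufb6 lower in SN vs UN (backgrounds 3.20% and 7.57%), and Cox6a2 higher and Ndufa4l2 lower in SH vs UH (7.65% and 5.35%).

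SN vs UN and SH vs UH share no library. Atp5a1, Cox8a and Uqcrc1 were higher in sorted cells in both, and 10 members were lower in both. The share of all genes that did so was not computed, so neither count can be read as more or fewer than in the table as a whole. Of the 10, Atp5e, Atp5h, Atp5j2, Ndufa3, Ndufb6 and Ndufs3 passed in both under every scaling tried. Cox6a2 passed in opposite directions, lower in SN vs UN and higher in SH vs UH. The former did not pass under median-of-ratios scaling, at -0.55 (adjusted p = 0.0548), or with no filter on low values, at -0.62 (adjusted p = 0.0642). It was also lost without UN replicate 2 or 3, at -0.52 (adjusted p = 0.131) and -0.54 (adjusted p = 0.121). Without SN replicate 1, 2 or 3 it was at -0.59 (adjusted p = 0.0954), -0.58 (adjusted p = 0.107) and -0.69 (adjusted p = 0.0568). Atp5a1 rose by a log2 fold change of 0.92 ± 0.08 (SE), adjusted p = 3.98e-06 in SN vs UN and 0.51 ± 0.08 (SE), adjusted p = 2.58e-04 in SH vs UH. Under median-of-ratios scaling Atp5a1 and Uqcrc1 did not pass in SH vs UH, at 0.29 (adjusted p = 0.0642) and 0.25 (adjusted p = 0.143). Cox8a was at 610.1, 810.2 and 856 TPM in UN, 635, 548 and 547 TPM in UH, 1145, 1404 and 1315 TPM in SN and 1033, 848 and 966 TPM in SH, with log2 fold changes of 0.77 (adjusted p = 0.00129) and 0.72 (adjusted p = 0.00166). Each sorted library lay above each unsorted library at the same oxygen level. Ndufb6, an accessory subunit of the complex I membrane arm, was at 163, 159.8 and 155 TPM in UN, 86.1, 88.2 and 80.9 TPM in UH, 66.6, 49.2 and 63.5 TPM in SN and 43.8, 56.1 and 55.1 TPM in SH. It was the member furthest below in SN vs UN, where the log2 fold change was -1.41 ± 0.13 (SE), adjusted p = 7.33e-06, and in SH vs UH it was -0.72 (adjusted p = 7.87e-04). Atp5e and Atp5j2, small subunits of complex V, fell in both (Atp5e -0.72 and -0.65, Atp5j2 -0.67 and -0.79). Cox7a1 rose in SN vs UN by 1.59 ± 0.44 (SE), adjusted p = 0.0160, but did not pass without UN replicate 2, at 1.17 (adjusted p = 0.0718), or without SN replicate 3, at 1.38 (adjusted p = 0.0705). Of the levels already given, Uqcrc2 was higher in SH than in UH by 0.91 ± 0.11 (SE), adjusted p = 4.85e-05.

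**Figure D5:**
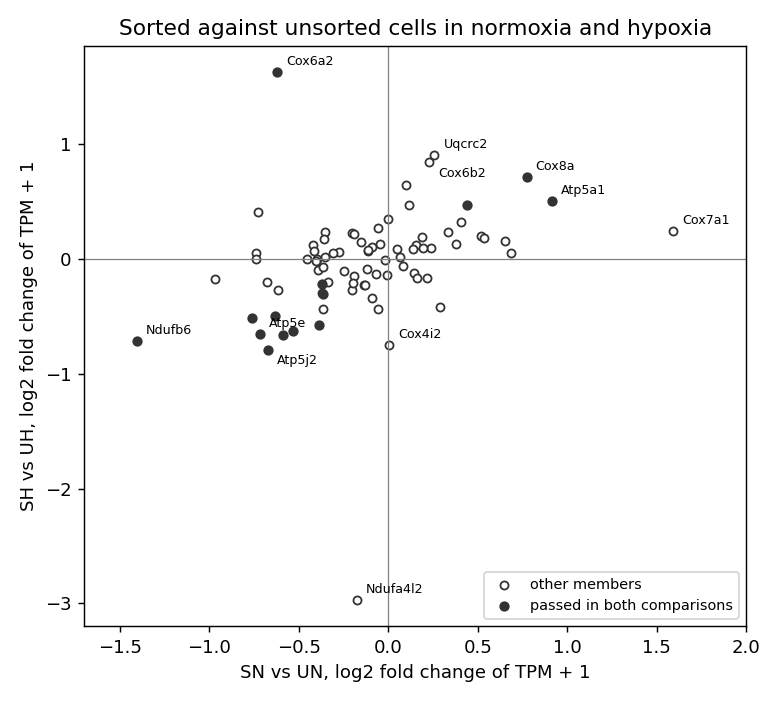
Log2 fold changes (on TPM + 1) of the 82 tested members between sorted and unsorted cells in normoxia (SN vs UN, horizontal axis) and in hypoxia (SH vs UH, vertical axis). Each point is 1 gene, filled where it passed the test in both comparisons. Most points lie within 1 of both axes, Ndufa4l2 lies at -2.97 on the vertical axis and Cox6a2 at 1.63.

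The test of the difference between the hypoxia responses of sorted and unsorted cells was passed by 13 members: 9 responded more positively in sorted cells (background 17.4%) and 4 more negatively (background 4.51%). The median of this difference was 0.05 over the members and 0.25 over all genes. These counts turned round with median-of-ratios scaling, where 2 members were more positive (10.7% of all genes) and 6 more negative (10.3%). Under every scaling tried the sign and the call held for Cox6a2 and Atp5s (more positive) and for Ndufa4l2, Cox4i2, Atp5a1 and Atp5d (more negative). Atp5s, a coupling factor that is not counted in complex V here, was at 2.88, 4.34 and 4.14 TPM in UN, 1.80, 2.41 and 1.83 TPM in UH, 2.11, 1.91 and 1.59 TPM in SN and 2.81, 2.96 and 3.22 TPM in SH. It fell in UH vs UN (-0.66 (adjusted p = 0.00549)) and rose in SH vs SN (0.48 (adjusted p = 0.0327)), and the responses differed by 1.14 ± 0.23 (SE), adjusted p = 0.00528. The fall did not pass under median-of-ratios scaling, at -0.40 (adjusted p = 0.0508). The rise did not pass without SN replicate 2 or 3, at 0.49 (adjusted p = 0.0695) and 0.41 (adjusted p = 0.105), or without SH replicate 1, 2 or 3, at 0.51 (adjusted p = 0.0595), 0.49 (adjusted p = 0.0723) and 0.44 (adjusted p = 0.0775). The difference did not pass for Atp5a1 without UN replicate 3, at -0.36 (adjusted p = 0.0513), or for Atp5d when any 1 of 10 libraries was left out, with log2 values of -0.79 to -0.51 over all 12 such fits. Ndufb5, Ndufb6, Ndufc1, Ndufs6, Uqcrb and Uqcrc2 fell in UH vs UN (Ndufb5 not under median-of-ratios scaling), did not pass in SH vs SN, and did not pass the test of the difference under median-of-ratios scaling. The count of more positive responses was 14 without UN replicate 1 and 17 without UH replicate 1, and that of more negative ones was 2 without UN replicate 3.

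The mitochondrially encoded subunits, which work in the same complexes, fell as well. Of 13, 9 fell in UH vs UN, 11 fell in SH vs SN and none rose in either, with medians of -1.49 and -1.60. mt-Co1, the catalytic subunit of complex IV, was at 12476, 9032 and 11253 TPM in UN, 2821, 3451 and 5104 TPM in UH, 11294, 10377 and 11063 TPM in SN and 5853, 5889 and 7596 TPM in SH. mt-Co2 did not pass in either, at -0.44 (adjusted p = 0.393) and 0.21 (adjusted p = 0.727). Of the 13, 4 were higher and none lower in SN vs UN, and likewise in SH vs UH. These transcripts took 5.18 to 7.55% of all TPM in UN and 1.67 to 2.53% in UH. In sorted cells they took 7.64 to 8.38% in SN and 2.66 to 4.68% in SH. Leaving them out of the scale gave 64 members lower and 6 higher in UH vs UN. In SH vs SN it gave 53 lower and 7 higher. Of all genes 36.2% fell and 12% rose in UH vs UN on that scale. In SH vs SN 22.2% of all genes fell and 19.9% rose.

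Genes that act on the chain moved in both directions. The 6 hypoxia targets on the list (Higd1a, Lonp1, Pdk1, Bnip3, Bnip3l and Mxi1, which include a complex IV interactor, a protease that degrades COX4I1 and the kinase that shuts off pyruvate dehydrogenase) rose past 2-fold in both comparisons, with median log2 fold changes of 2.63 and 2.45. Higd1a was at 38.8, 34.4 and 33.9 TPM in UN, 398, 385 and 362 TPM in UH, 30.3, 29.9 and 29 TPM in SN and 398, 459 and 314 TPM in SH. Of the 7 hypoxia controls, among them Vegfa, 7 rose in UH vs UN, against 6 in SH vs SN. Between the hypoxic groups, SH vs UH, 4 of these controls were lower, 3 of them past 2-fold, and 1 was higher (13.4% lower and 28.3% higher over all genes). The test of the difference of responses was passed by 1 control, more negative in sorted cells. The electron carriers and the inhibitor Atpif1 fell with the subunits, 5 of 5 tested in UH vs UN and 3 of 5 in SH vs SN. Cycs, cytochrome c, went from 173 to 225 TPM in UN to 59.3 to 73.5 TPM in UH. Of the assembly factors, 27 of 47 tested fell and none rose in UH vs UN: 7 of 13 for complex I, 3 of 4 for complex II, 5 of 6 for complex III, 11 of 21 for complex IV and 1 of 3 for complex V. In SH vs SN 12 fell and 5 rose. Of all genes 33.5% fell and 13.0% rose in UH vs UN, and 19.5% fell and 21.5% rose in SH vs SN. Under median-of-ratios scaling 13 assembly factors fell and 5 rose in UH vs UN (21.1% and 21.7% of all genes). In SH vs SN 11 fell and 4 rose on that scale (20.1% and 22.9% of all genes). Of 10 regulators of respiratory genes, among them Nrf1, Tfam and Ppargc1a, 5 fell in UH vs UN (3 under median-of-ratios scaling), and 4 fell and 2 rose in SH vs SN, while in SN vs UN 5 rose and none fell.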

How the data were processed

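RNA of 12 cultures, called independent replicas by the study, was sequenced as stranded mRNA libraries with paired reads on an AVITI instrument. The deposited values are TPM per gene, made by the authors with Salmon in the nf-core/rnaseq pipeline. The build is mm10 in the submitters' processing notes, and the annotation release is not given in the sources used here. No read counts or depths were used, so depth is unknown and no counting intervals are given. The study tested normalised counts with a fold threshold of 2. Here TPM were taken to log2(TPM + 1), genes with a mean of at least 0.1 TPM were kept (18909 of 45706), and limma 3.58.1 (R 4.3.3) fitted 1 mean per group over all 12 libraries with a trended empirical Bayes prior. P-values were adjusted by Benjamini-Hochberg over all genes tested per comparison. Where cultures were not separate, p-values measure only the spread between these samples.

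Isoform shares were compared by exact permutation tests (scipy 1.17.1). Members and lists were chosen with earlier results of these data known. Genes named were the isoforms, the Sdh genes, the complex I core, the gene of highest mean in each complex, the members of largest change per complex and comparison among those that passed without overlap of groups, and those that passed the test of the difference of responses, of which 1 is not reported here. Cox6c, Atp5g2 in full, Uqcrc1 and Higd1a were added after values were seen. Gene positions were read from GENCODE M21, in which all 85 members were found as protein coding genes on 19 chromosomes. The fits were tested on simulated data. Alternatives were a pseudocount of 0.1, no filter, a mean of at least 1 TPM, median-of-ratios scaling, rescaling without mitochondrially encoded genes, the replicate number as a block, only the 2 groups compared, no trend, and each library left out in turn.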

Additional observations from a re-analysis of the deposited data

Results flagged for a closer look

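For 13 of the 82 members the response to hypoxia differed between sorted and unsorted cells by a test of the difference itself (limma, adjusted p under 0.05), 9 of them more positive in sorted cells (17.4% of all genes) and 4 more negative (4.51%). With median-of-ratios scaling the counts were 2 more positive and 6 more negative (10.7% and 10.3% of all genes). Values are the log2 fold change in sorted cells minus that in unsorted cells. The most negative was that of Ndufa4l2, at -2.79, followed by Cox4i2 at -0.75, Atp5d at -0.64 and Atp5a1 at -0.41. The sizes for Ndufa4l2 and Cox4i2 depend on the pseudocount, as both genes lay under 1 TPM in every sorted library. Ndufa4l2 and Cox4i2 rose in unsorted cells, and Atp5a1 was at -0.01 there and at -0.42 in sorted cells. The most positive was that of Cox6a2, at 2.25, followed by Atp5s at 1.14. Both were higher in SH than in SN.

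For the complex I genes Ndufc1, Ndufs6, Ndufb6 and Ndufb5 the difference was 0.80, 0.80, 0.69 and 0.59, and for the complex III genes Uqcrb and Uqcrc2 it was 0.74 and 0.65. These 6 fell in unsorted cells, Ndufb5 not under median-of-ratios scaling, at -0.16 (adjusted p = 0.281). The difference of Ndufc1 did not pass in 7 of the 12 fits that left out 1 library, over which it ran from 0.68 to 0.96. Under median-of-ratios scaling none of these 6 passed. There the difference was 0.46 (adjusted p = 0.250) for Ndufc1, 0.46 (adjusted p = 0.212) for Ndufs6, 0.35 (adjusted p = 0.259) for Ndufb6, 0.25 (adjusted p = 0.289) for Ndufb5, 0.40 (adjusted p = 0.235) for Uqcrb and 0.31 (adjusted p = 0.175) for Uqcrc2. The summed fibroblast markers were far lower in sorted than in unsorted cells, and their part in these differences was not tested.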

How the results depend on the processing

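Under median-of-ratios scaling 11 members were higher and 25 lower in UH vs UN (median -0.24), 12 were lower in SN vs UN (median -0.0135), and 4 were higher in SH vs UH (median -0.21). On that scale 2 responded more positively and 6 more negatively in sorted cells (median of the difference -0.29). That scaling moved the median of all genes in UH vs UN from -0.19 to 0. With only the 2 groups compared, 9 members were lower in SH vs UH. With single libraries left out, the members lower ranged over 54 to 66 for UH vs UN, 38 to 51 for SH vs SN, 15 to 30 in SN vs UN and 9 to 18 in SH vs UH, the more positive responses over 7 to 17 and the more negative over 2 to 6, the median of the difference over 0.00026 to 0.18, and the log2 fold change of Cox4i2 in SN vs UN, which did not pass in any, over -0.0487 to 0.0327, with its sign turned without UN replicate 2 (-0.0487) and without SN replicate 1 (-0.0116). As a share of nuclear-encoded TPM the sums were 0.716% in UN and 0.650% in SN for complex I, 0.0509% in SN and 0.0296% in SH for complex II, 0.298% in UN, 0.251% in SN and 0.199% in SH for complex III, 0.571% in UN and 0.590% in SN for complex IV, 0.644% in UN and 0.667% in SN for complex V, and 2.32% in UN and 2.24% in SN for all members. The other group sums moved by less than their SD.

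Of the 198 calls of members over the 5 tests, 74 were lost under median-of-ratios scaling, 36 of them in UH vs UN, where 2 also turned sign, and the cause was not tested. For the 125 of these that belong to genes named by rule, other than Cox4i2 and Ndufa4l2, 213 of 2487 calls refitted over all alternatives were lost and none turned sign. The replicate numbers did not pair the libraries: the correlation of deviations of libraries with the same number ran from -0.0631 to 0.141. With the number as a block, the members higher and lower were 7 and 60 for UH vs UN, 7 and 48 for SH vs SN, 9 and 22 in SN vs UN and 8 and 14 in SH vs UH, and 8 and 5 for the difference. TPM give no depth, and genes near 0 such as Cox4i2 rest on few reads. Groups of 3 libraries allow no exact p under 0.1.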
